A study of Mus musculus with 36 samples.

Results

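The growth hormone axis of the liver was followed here through 8 genes: the receptors Ghr and Prlr, the transcription factor Stat5b, the feedback inhibitors Socs2 and Cish, the transcriptional repressor Bcl6, and the secreted products Igf1 and Igfals. A gene was taken through probe sets that the platform annotation pairs with its symbol alone, and the brightest such probe set over all samples stood for it. Of the 8 genes, 7 were measured and passed the filter on dim genes, among 13956 genes tested in all, and Prlr was not analysed here. Levels are log2(intensity + 16) of the deposited array intensities, so 1 unit is close to a doubling for a bright gene, and differences of dim genes are understated.

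The study measured liver RNA of C57BL/6J mice on Affymetrix whole-transcript gene arrays, 1 array per sample, in 36 samples. In the high fat diet (HFD) group, 18 samples came from mice that had eaten a diet with 60% of its kcal from fat over 10 weeks. In the chow group, 18 samples came from mice on normal chow. All mice were 16 weeks old, fed ad libitum and kept in a cycle with 12 h of light, and livers of each diet were taken every 4 h at Zeitgeber time (ZT) 0, 4, 8, 12, 16 and 20, where ZT0 is lights on, with 3 samples at each time. The labels number these samples without naming their animals, and p-values here cover the spread among the samples. The labels do not give the sex. Xist, the RNA of the inactive X chromosome, lay at 4.53 to 5.52 in HFD livers and at 4.79 to 5.42 in chow livers, below the filter on dim genes at 6.11, and the Y-linked genes Uty, Kdm5d and Eif2s3y lay at 8.04 to 9.49 in HFD livers and at 8.15 to 9.47 in chow livers.

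Growth hormone from the pituitary binds the growth hormone receptor GHR on hepatocytes, the kinase JAK2 phosphorylates STAT5B, and STAT5B enters the nucleus and switches on Igf1, Igfals, Socs2 and Cish. SOCS2 and CISH then dampen the receptor, and BCL6 represses genes at STAT5 sites and is itself lowered by growth hormone. In rodents the hormone is released in pulses, and the pattern of the pulses, which differs between males and females, sets the expression of many sex-biased liver genes.

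STAT5 binds the palindrome TTCNNNGAA, which reads the same on both strands, so promoter windows were searched for it. RefSeq windows of mouse build GRCm38.p6, from 250 bases before to 50 bases after a gene start, existed for 7 of the 8 genes, Prlr included and Socs2 not. The motif stood in 6 of their 14 windows, in 4 genes (Cish, Bcl6, Igfals and Prlr), and in 8.3% of all 32851 windows. The same ends with 4 bases between them stood in 0 of the 14 windows and in 6.95% of all. A window is shown for each measured gene that has the motif, Cish, Bcl6 and Igfals, and where a gene has several windows it is the one with the most matches, or with the match nearest to the start. Each runs 5′ to 3′ on the gene's strand, and capitals mark the motif.
Cish, chr9:107296409-107296708, plus strand: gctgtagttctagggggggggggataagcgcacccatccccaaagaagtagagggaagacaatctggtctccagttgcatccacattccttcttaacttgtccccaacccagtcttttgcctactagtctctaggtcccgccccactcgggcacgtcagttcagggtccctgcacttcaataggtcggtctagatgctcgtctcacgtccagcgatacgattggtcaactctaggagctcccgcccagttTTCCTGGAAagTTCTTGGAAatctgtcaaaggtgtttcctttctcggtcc
Bcl6, chr16:23981234-23981533, minus strand: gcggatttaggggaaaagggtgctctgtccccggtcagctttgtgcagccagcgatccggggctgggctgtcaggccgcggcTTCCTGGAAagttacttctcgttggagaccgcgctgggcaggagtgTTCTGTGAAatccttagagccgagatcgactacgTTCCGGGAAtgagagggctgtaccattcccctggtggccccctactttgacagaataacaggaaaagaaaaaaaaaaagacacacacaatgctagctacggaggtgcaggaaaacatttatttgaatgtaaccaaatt
Igfals, chr17:24877981-24878280, plus strand: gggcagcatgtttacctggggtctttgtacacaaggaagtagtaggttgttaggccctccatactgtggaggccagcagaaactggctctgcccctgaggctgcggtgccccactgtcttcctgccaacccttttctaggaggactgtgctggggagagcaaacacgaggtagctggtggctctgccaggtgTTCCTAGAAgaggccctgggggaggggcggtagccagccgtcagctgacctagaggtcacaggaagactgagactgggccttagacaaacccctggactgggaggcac

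Counting the first base of the gene as 1 and the base before it as -1, the Cish window held 2 matches, TTCCTGGAA from base 1 and TTCTTGGAA from base 12. The Bcl6 window held 3 matches, TTCCTGGAA from base -168, TTCTGTGAA from base -122 and TTCCGGGAA from base -88. The Igfals window held TTCCTAGAA from base -58. Of the windows not shown, Bcl6 at chr16:23988803-23989102 held TTCTCAGAA from base -118, Igfals at chr17:24877594-24877893 held TTCTCAGAA from base -236, and the other Igfals window held no match. Windows with 2 or more matches made up 0.457% of all windows. The Cish and Bcl6 windows were thus both among these, and both hold the letters TTCCTGGAA. The windows of Ghr, Stat5b and Igf1 held no match, which says only that these letters are not in those windows.

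Across the day, Socs2 and Igfals were lower in HFD livers than in chow livers, and the other 5 measured genes did not pass the test. The diet effect was tested in a limma fit with a mean for each of the 12 groups, as the difference between the average of the 6 HFD means and that of the 6 chow means, with p-values adjusted by Benjamini-Hochberg over all 13956 genes and a call at adjusted p under 0.05. Of all tested genes 21.0% were called, 11.2% higher and 9.80% lower on HFD. The count for the axis was 0 higher and 2 lower of 7 genes. With so few genes, 2 calls of 7 are near the 21.0% called in all. The median difference of the 7 genes, which is the value of Igfals itself, was -0.23, against 0.02 over all tested genes. In bulk liver, fewer cells of a type and less RNA per cell cannot be told apart.

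The scaling of the arrays moved the split between the directions over all genes. It was 1570 genes higher and 1367 lower on HFD with the values as deposited, 987 and 1930 after centring each array on its median, and 1501 and 1701 after quantile normalization. Under these 2 scalings the directions and the calls of Socs2 and Igfals were the same.

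**Figure D1:**
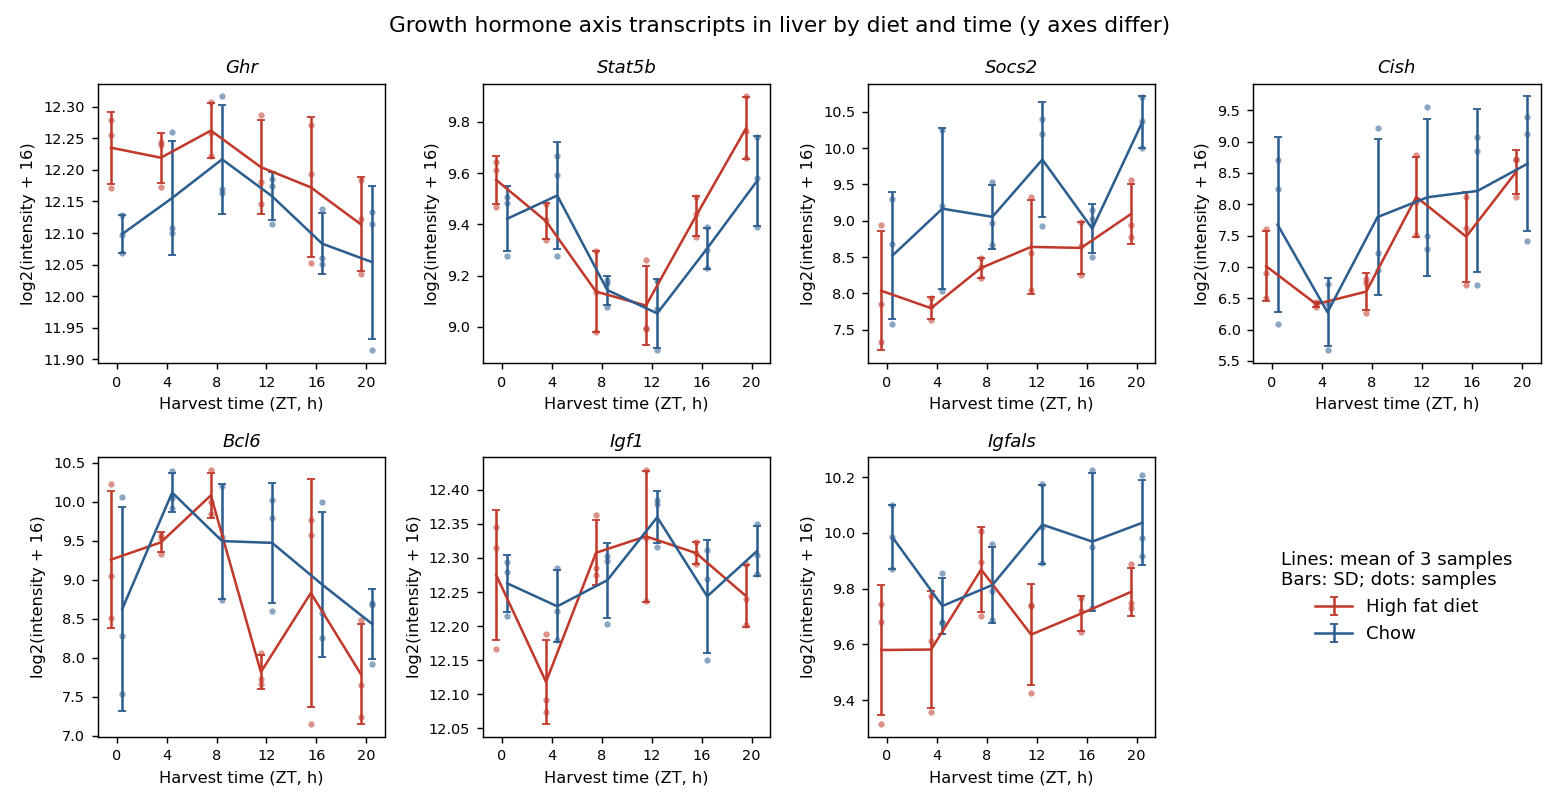
Level of the 7 measured genes (y axis, log2(intensity + 16)) at each Zeitgeber time (x axis, hours), with HFD and chow as separate colours, points for single samples lines through the means of 3 samples and bars for the SD. Socs2 points on HFD sit below most chow points at most times, Stat5b peaks late in the night on both diets, and Cish and Bcl6 points of a group lie far apart.

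At the top of the pathway, Ghr, the hormone's receptor, was among the bright probe sets. It ranged over 12.04, 12.21 and 12.31 (lowest, median and highest) in the 18 HFD samples and over 11.91, 12.12 and 12.32 in the 18 chow samples. The 2 ranges overlapped almost entirely. The difference over the day was 0.07 ± 0.03 (SE), with an adjusted p of 0.0739 in limma and a 95% interval of 0.01 to 0.13. The HFD mean was above the chow mean at 6 of 6 times, and at ZT0 alone all HFD samples lay above all chow samples, which held for 14.9% of all tested genes. After quantile normalization the difference was 0.09 with an adjusted p of 0.00389, and after centring each array on its median it was 0.04 with an adjusted p of 0.397, so the call on Ghr depended on the scaling.

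Stat5b, which carries the signal to the nucleus, averaged no diet difference that passed the test (0.07 ± 0.04, adjusted p 0.295 in limma, interval -0.02 to 0.16). Its level differed between times of day. At ZT20 it stood at 9.77, 9.90 and 9.66 in HFD livers and at 9.58, 9.74 and 9.39 in chow livers, and at ZT12 it stood at 8.99 to 9.26 in the 3 HFD livers and at 9.18, 9.07 and 8.91 in chow livers. Every ZT20 sample of a diet was above every ZT12 sample of that diet. These times were picked from the same values, as those of the highest and the lowest mean of each diet. How many of all tested genes are separate at such times was not counted. Differences between the 6 times passed limma's F test on both diets, with an adjusted p of 9.71e-05 on HFD and 0.00164 on chow. Of all tested genes, 16.8% passed this test on HFD and 21.0% on chow.

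A cosine wave with a 24 h period was called for Stat5b on both diets, with an adjusted p of 1.77e-05 on HFD and 0.00103 on chow in limma, where 11.0% of all tested genes passed on HFD and 20.6% on chow. The wave had an amplitude, from mean to peak, of 0.33 ± 0.05 and a peak at ZT21.6 ± 0.55 on HFD, and of 0.24 ± 0.05 with a peak at ZT23.0 ± 0.75 on chow. The difference between the 2 waves did not pass the test (adjusted p 0.722). Stat5b was the member called in the wave test on each diet, 1 of 7 both times.

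The inhibitor Socs2 showed the largest diet difference of the 7 genes. It ranged over 7.33, 8.42 and 9.56 in HFD samples and over 7.57, 9.18 and 10.70 in chow samples, and averaged 8.42 ± 0.60 on HFD and 9.30 ± 0.87 on chow (SD over 18 samples each, times included). In the limma fit it was lower on HFD, with a difference of -0.88 ± 0.18 (adjusted p 0.000655, 95% interval -1.26 to -0.51), or 0.543-fold on the scale with the offset. The HFD mean was the lower at 6 of 6 times, and 16 of 18 HFD samples lay below the chow mean of their time.

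All HFD samples of Socs2 lay below all chow samples at ZT4, ZT8 and ZT20, 3 of 6 times, which held for 9.95%, 7.39% and 6.52% of all tested genes at these times and for 9.44% of genes and times pooled. At ZT4 they stood at 7.83, 7.93 and 7.63 in HFD livers and at 10.25, 8.04 and 9.21 in chow livers. At ZT20 they stood at 9.56, 8.94 and 8.78 in HFD livers and at 10.38, 10.70 and 10.00 in chow livers. At ZT0, where the values were 7.33, 8.93 and 7.85 in HFD livers and 8.68, 7.57 and 9.30 in chow livers, the groups overlapped and chow replicate 2 was near the lowest HFD sample. A second, dimmer probe set of Socs2 gave the same direction, -0.81 ± 0.16 with an adjusted p of 0.000284.

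Cish, the other inhibitor and an early target of STAT5, gave no diet call. It ranged over 6.27, 7.21 and 8.79 in HFD samples and over 5.67, 7.45 and 9.55 in chow samples, so that its chow range enclosed its HFD range. The difference was -0.43 ± 0.27 (adjusted p 0.283 in limma), with an interval of -0.98 to 0.12 that includes both no difference and one as large as that of Socs2. At 1 of 6 times, ZT8, the groups did not overlap, with 6.74, 6.27 and 6.81 in HFD livers and 7.22, 9.22 and 6.94 in chow livers, and 7.39% of all tested genes lay below chow in the same way at that time. These HFD values were not far above the filter on dim genes at 6.11.

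Bcl6, the repressor, likewise gave no diet call over the day (-0.30 ± 0.24, adjusted p 0.401 in limma, interval -0.79 to 0.18). It ranged over 7.15, 9.19 and 10.40 in HFD samples and over 7.53, 9.14 and 10.40 in chow samples, nearly the same limits. Its widest gap was at ZT12, with 7.72, 7.66 and 8.06 in HFD livers and 10.02, 8.60 and 9.80 in chow livers. The difference at that time was -1.66 with an adjusted p of 0.0935, which misses the threshold. All HFD samples lay below all chow samples at ZT12 and also at ZT4 (a difference of -0.64), which held for 13.0% and 9.95% of all tested genes at these times.

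Of the secreted products, Igf1, the hormone's main circulating mediator, was at nearly the same level on the 2 diets. It ranged over 12.07, 12.29 and 12.43 in HFD samples and over 12.15, 12.29 and 12.38 in chow samples. The difference was -0.01 ± 0.03 (adjusted p 0.749 in limma), interval -0.07 to 0.04. Igfals, the acid labile subunit that holds IGF1 and its binding protein in a long-lived serum complex, was lower on HFD, with a difference of -0.23 ± 0.05 (adjusted p 0.00126, interval -0.34 to -0.13), or 0.850-fold. It averaged 9.69 ± 0.18 in HFD livers and 9.93 ± 0.18 in chow livers (SD, n = 18 each).

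The Igfals values were below the chow mean of their time in 15 of 18 HFD samples, and the HFD mean was lower at 5 of 6 times. At ZT0 it stood at 9.31, 9.74 and 9.68 in HFD livers and at 9.98, 9.87 and 10.10 in chow livers. At ZT12 it stood at 9.74, 9.74 and 9.42 in HFD livers and at 9.89, 10.18 and 10.02 in chow livers. All HFD samples lay below all chow samples at these times and at ZT20, which held for 11.5%, 13.0% and 6.52% of all tested genes, and the groups overlapped at ZT4, ZT8 and ZT16.

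**Figure D2:**
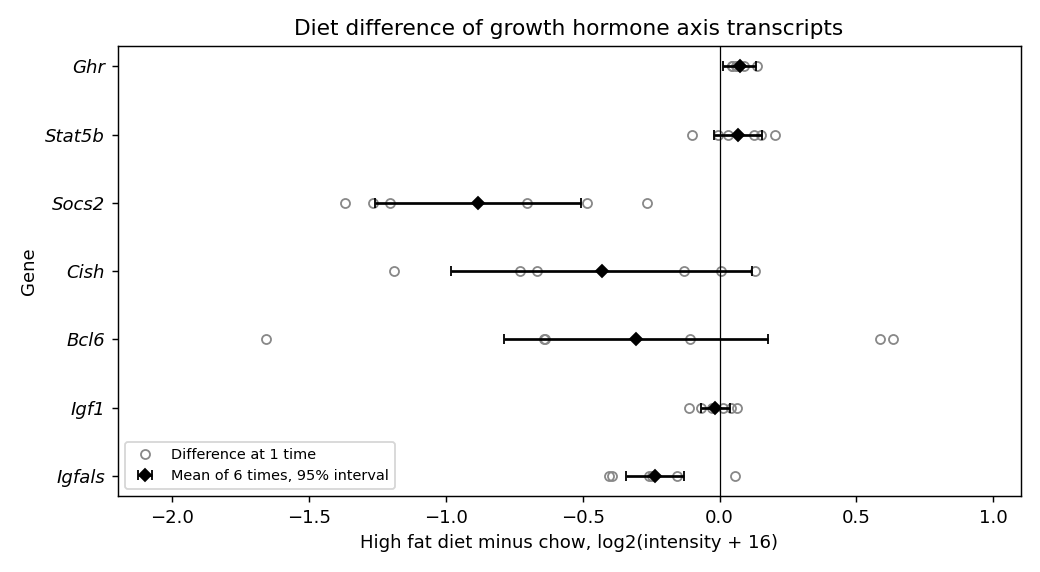
Diet difference over the day (x axis, HFD minus chow, log2(intensity + 16)) for the 7 measured genes (y axis), with diamonds and bars for the mean of the 6 times and its 95% interval in the limma fit, and rings for single times. The intervals of Socs2 (-1.26 to -0.51) and Igfals (-0.34 to -0.13) lie below 0, and the interval of Cish is wide where that of Igf1 is narrow.

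At single harvest times, 1 of 42 tests on the 7 genes passed, Igfals at ZT0, lower on HFD, with a difference of -0.40 ± 0.13 and an adjusted p of 0.0495 in limma. At that time 7.12% of all tested genes were called, 3.75% as lower. The Igfals call at ZT0 was lost in 27 of the 36 fits that each left out 1 sample, where its adjusted p ran from 0.039 to 0.270. The shares of all genes called were 3.69% at ZT4, 0.774% at ZT8, 5.44% at ZT12, 2.22% at ZT16 and 2.04% at ZT20, with 0 of the 7 genes at each of these times. By limma's unadjusted p under 0.05, 1 of the 7 genes passed at ZT4, 3 at ZT12, 1 at ZT20 and 0 at ZT8 and ZT16. At that threshold 17.0% of all tested genes passed at ZT4, 18.2% at ZT12, 13.5% at ZT20, 9.41% at ZT8 and 13.2% at ZT16. The differences of Socs2 were -0.48 at ZT0, -1.37 at ZT4, -0.70 at ZT8, -1.20 at ZT12, -0.26 at ZT16 and -1.27 at ZT20.

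Whether the diet effect itself changed over the day was tested as the diet by time interaction. It was called for 0 of the 7 genes in limma, where 0.631% of all tested genes were called. At an unadjusted p under 0.05, 0 of the 7 genes passed, and 13.4% of all tested genes did. The lowest value was that of Bcl6, with an adjusted p of 0.418. So the larger Socs2 gaps at ZT4, ZT12 and ZT20 were not shown to differ from the smaller ones at ZT0 and ZT16. The difference between the diets in the 24 h wave was called for 0 of the 7 genes too, and for 0.0287% of all tested genes. At an unadjusted p under 0.05 in limma, 0 of the 7 genes passed it, and 8.32% of all tested genes did.

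Besides Stat5b, differences between the times of a diet passed for Bcl6 on HFD (adjusted p 0.0164 in limma) and for Socs2 on chow (adjusted p 0.0234). Bcl6 on HFD was at 10.00, 10.40 and 9.84 at ZT8, and at 7.65, 8.49 and 7.23 at ZT20, with no overlap. Its adjusted p on chow was 0.175, where the ZT4 samples at 10.04, 9.91 and 10.40 were all above the ZT20 samples at 8.68, 8.71 and 7.92. These Bcl6 times were picked from the same values, as those of the highest and the lowest mean of each diet. How many of all tested genes are separate at such times was not counted. The Socs2 call on chow was lost, at an adjusted p of up to 0.0857, without chow ZT0 replicate 2, without chow ZT20 replicate 1 or without chow ZT20 replicate 2.

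The fitted waves of Cish and Bcl6 were the largest of the 7 genes, and neither was called. Cish had an amplitude of 0.89 ± 0.28 with a peak at ZT17.0 on HFD (adjusted p 0.0913 in limma) and of 0.87 ± 0.28 with a peak at ZT16.5 on chow (adjusted p 0.0693). Bcl6 had an amplitude of 0.87 ± 0.26 with a peak at ZT5.09 on HFD (adjusted p 0.0688) and of 0.70 ± 0.26 with a peak at ZT7.48 on chow (adjusted p 0.134). On both diets the fitted peak of Cish lay in the dark phase and that of Bcl6 in the light phase. The Cish wave passed on chow without ZT16 replicate 3 (adjusted p 0.0111 in limma), ZT8 replicate 2 (0.0163) or ZT0 replicate 3 (0.0442) of that diet, and on HFD without HFD ZT16 replicate 3 (0.0315). The Bcl6 wave passed on HFD without HFD ZT16 replicate 2 (0.0186) or 3 (0.0132).

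When the 12 group means of each gene were put in order, neighbours seldom stood apart. For Stat5b, 2 of 11 neighbouring pairs were separate, meaning that the lowest sample of one lay above the highest of the next. HFD at ZT20 (9.77) stood above HFD at ZT0 (9.57), and chow at ZT16 (9.31) stood above chow at ZT8 (9.14). For the other 6 genes 0 of 11 pairs were separate. How often such pairs are separate over all tested genes was not counted.

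The spread between livers of the same diet and time differed widely among the axis genes. The residual SD of the 12-group fit was 0.90 for Cish, 0.79 for Bcl6 and 0.61 for Socs2, against a median of 0.14 over all tested genes. Ranked from the widest of the 13956 genes, Cish was at place 7, Bcl6 at place 12 and Socs2 at place 32. Igfals (0.16) and Stat5b (0.13) were near the median, and Ghr (0.07) and Igf1 (0.06) were among the genes with the least spread. Ghr and Igf1 were also bright, with mean levels of 12.16 and 12.27, and the ranking took no account of level.

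**Figure D3:**
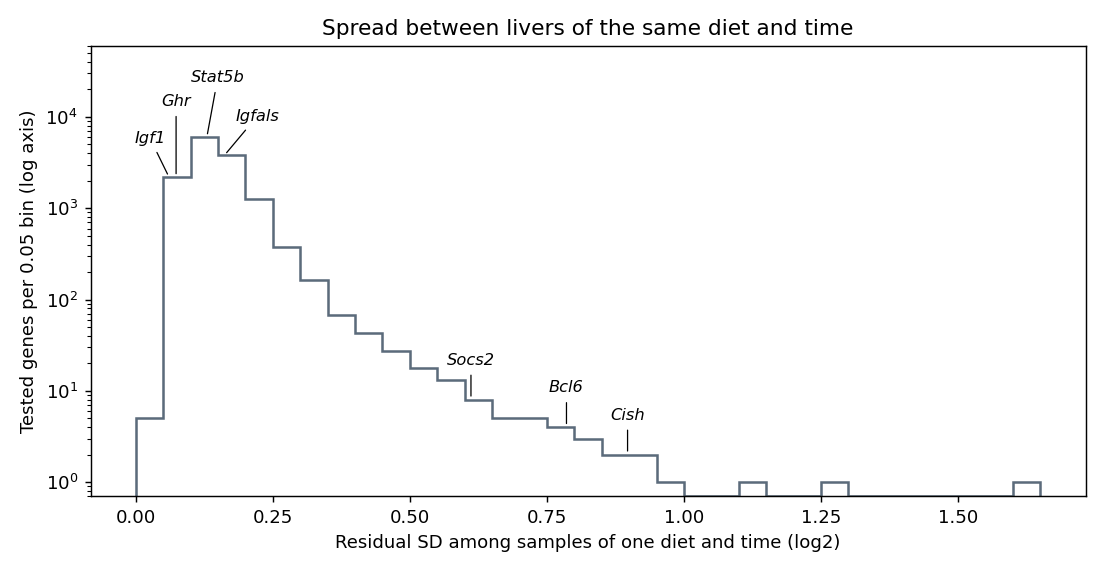
Number of tested genes (y axis, log scale) at each residual SD within diet and time (x axis, log2 units), with the 7 measured genes marked. Cish (0.90), Bcl6 (0.79) and Socs2 (0.61) lie in the far right tail, and Igf1 (0.06) and Ghr (0.07) lie at the left.

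Single livers show how wide this was. Cish at ZT12 stood at 8.79, 8.04 and 7.51 in HFD livers and at 7.28, 9.55 and 7.50 in chow livers. At ZT0 it stood at 6.91, 7.61 and 6.51 in HFD livers and at 8.24, 6.08 and 8.70 in chow livers. In chow, 1 liver stood far above the other two at ZT12, and 1 stood far below the other two at ZT0. The SD within groups was 0.49 on HFD and 1.17 on chow for Cish, 0.49 and 0.71 for Socs2, and 0.76 and 0.81 for Bcl6, and the difference between the diets in this spread was not tested. Cish was dim at ZT4, at 6.44, 6.36 and 6.42 in HFD livers and at 6.73, 5.67 and 6.43 in chow livers. The filter on dim genes lay at 6.11, and differences at such levels are understated.

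Livers of a group that were high in Cish tended to be low in Bcl6. This was measured by adding each sample's Cish level as a covariate to the 12 group means, so that the slope rests on how samples of a group differ from one another. Bcl6 changed by -0.67 ± 0.11 per log2 unit of Cish, with an adjusted p of 0.000768 in limma over 13955 genes. It ranked at place 14 of these by p. Of all genes 0.287% were called, 0.193% with a positive and 0.0932% with a negative slope. The count for the axis was 1 of the 6 other genes. Cish and Bcl6 come from the same arrays, and what the samples of a group share beyond diet and time is not in the labels.

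Per sample, Cish and Bcl6 deviated from their group means in opposite directions in 27 of 36 samples. In 6 of 12 groups the sample highest in Cish was the lowest in Bcl6, and in 1 group the same sample was highest in both. For Socs2 and Bcl6 these counts were 6 and 2 of 12 groups, with opposite directions in 21 of 36 samples. With 3 samples in a group, some such matches arise by chance. How often they occur over all tested genes was not counted. At chow ZT0, Bcl6 stood at 7.53, 10.06 and 8.27 where Cish stood at 8.24, 6.08 and 8.70 in the same samples. At chow ZT16, Bcl6 stood at 8.58, 8.25 and 9.99 where Cish stood at 8.85, 9.07 and 6.71. In each of these groups the 1 liver with little Cish had the most Bcl6. These 2 livers were the farthest in Cish from their group means of all 36 samples.

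**Figure D4:**
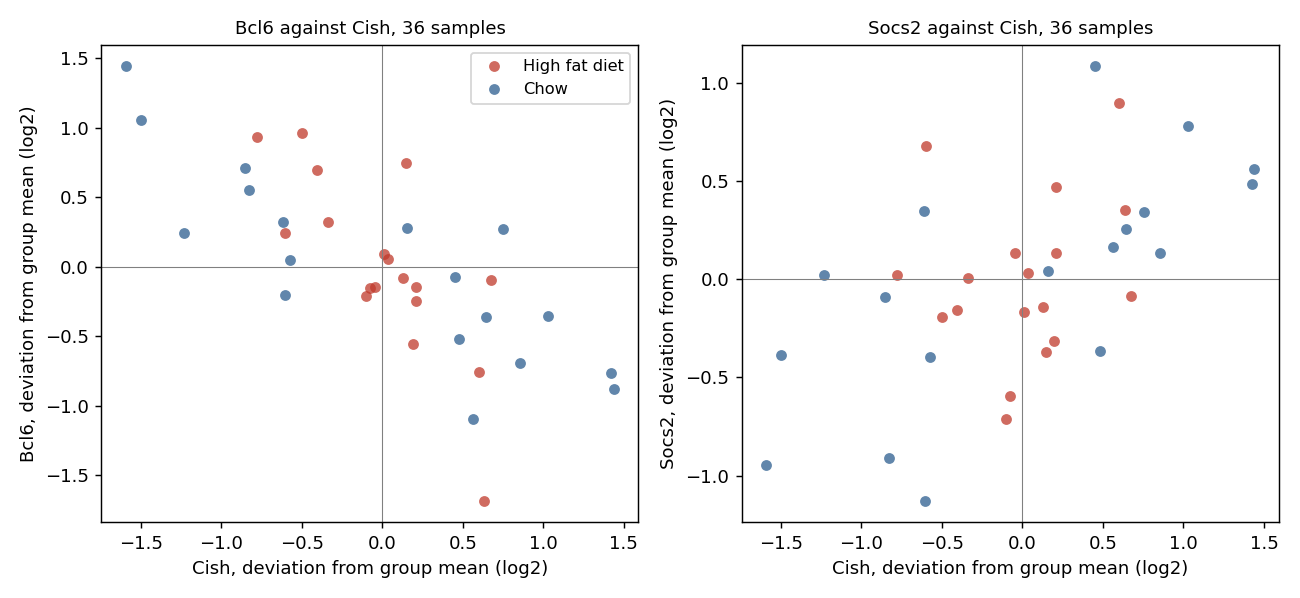
Deviation from the group mean of Bcl6 and of Socs2 (y axes, log2 units) against that of Cish (x axis, log2 units) in the 36 samples, with HFD and chow as separate colours. Bcl6 deviated opposite to Cish in 27 of 36 samples, and Socs2 did so in 12 of 36. Such counts over all tested genes were not made.

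The slope of Bcl6 on Cish was -1.17 ± 0.25 in HFD samples alone, with an adjusted p of 0.337, and -0.58 ± 0.09 in chow samples alone, with an adjusted p of 0.00959 (limma on 18 samples each). In the HFD samples 0 genes were called in limma, and 1789 of 13955 had an unadjusted p under 0.05. The difference between the diets in this slope was -0.59 ± 0.28 and did not pass the test (adjusted p 0.640), and 0% of all tested genes did. At an unadjusted p under 0.05, 1 of the 6 genes passed this test of the difference, and 7.48% of all tested genes did. Without the 2 samples farthest in Cish from their group means, which were chow ZT0 replicate 2 and chow ZT16 replicate 3, the slope was -0.58 ± 0.14 with an adjusted p of 0.0806, so the call rested on those samples and the direction did not.

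For Socs2 the slope on Cish was 0.38 ± 0.11, which missed the threshold in limma (unadjusted p 0.00119, adjusted p 0.219). In 9 of 12 groups the same sample was highest in both, and how often this occurs over all tested genes was not counted. The dimmer Socs2 probe set had an adjusted p of 0.0779. The slopes of Igf1 (0.03 ± 0.02, adjusted p 0.995) and Igfals (0.05 ± 0.04, adjusted p 0.995) missed the threshold, and those of Stat5b (0.01) and Ghr (0.00) were near 0.

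Other genes of the pathway were counted from lists of named genes, in the diet effect over the day. For this list and those that follow, the shares over all tested genes were 11.2% higher and 9.80% lower, with a median difference of 0.02. Of 19 tested genes of growth hormone receptor signalling, 4 were higher and 3 lower on HFD, with a median difference of 0.01. Irs2, an adaptor of insulin and IGF receptors, averaged 7.55 ± 0.33 on HFD and 7.95 ± 0.32 on chow (SD, n = 18 each), a difference of -0.39 ± 0.06. Grb10, an adaptor that inhibits insulin and IGF1 receptors, differed by -0.34 ± 0.05, and Pik3r1, a regulatory subunit of PI3 kinase, by 0.30 ± 0.05. Stat5a, the close relative of Stat5b, averaged 8.37 ± 0.14 on HFD and 8.13 ± 0.25 on chow, higher by 0.24 ± 0.04 (adjusted p 0.000122 in limma).

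In the IGF system 0 of 13 tested genes were higher and 1 was lower on HFD, with a median of 0.01. That gene was Igfbp2, a binding protein for IGF1 and IGF2. It averaged 10.26 ± 0.51 in HFD livers and 11.22 ± 0.25 in chow livers (SD, n = 18 each), a difference of -0.96 ± 0.10 with an adjusted p of 1.53e-08 in limma.

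Of 11 transcription factors of growth hormone dependent genes, 1 was higher and 3 were lower, with a median of -0.10. Tox differed by 0.40 ± 0.06, Foxa3 by -0.24 ± 0.06, Zbtb20 by -0.22 ± 0.05 and Hnf4a, a central factor of hepatocyte genes, by -0.13 ± 0.04. Of the 11 genes of this list, 3 were called with a positive slope on Cish, as were 27 of all 13955 genes (0.193%). These were Onecut1 at 0.68 ± 0.09 (adjusted p 6.38e-05), Foxa2 at 0.24 ± 0.03 (adjusted p 3.77e-05) and Foxa1 at 0.21 ± 0.03 (adjusted p 0.000387). In the growth hormone signalling, IGF, male-biased and female-biased lists, with 19, 13, 24 and 23 tested genes, 0 genes were called in the slope. Of all tested genes 0.287% were called, so a count of 0 in lists this short says little.

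Sex-biased genes known to depend on the hormone's pulses were counted in the same way. Of 24 tested male-biased genes, 4 were higher and 14 lower, with a median of -0.34. Over all tested genes 11.2% were higher and 9.80% lower, which stands beside the female-biased counts below as well. Cyp4a12a, a fatty acid hydroxylase, averaged 11.73 ± 0.32 in HFD livers and 12.47 ± 0.12 in chow livers, and its near-identical neighbour Cyp4a12b, whose signal the probes may share, averaged 11.58 ± 0.33 in HFD livers and 12.36 ± 0.13 in chow livers (SD, n = 18 each). The glutathione transferase Gstp1 differed by -0.50 ± 0.07 and the cytochrome P450 Cyp2f2 by -0.25 ± 0.03.

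Of 23 tested female-biased genes, 12 were higher and 6 lower on HFD, with a median of 0.33. They did not go the same way. Cyp2b9 averaged 9.99 ± 2.03 in HFD livers and 6.11 ± 1.02 in chow livers, and Cyp17a1, a steroid hydroxylase, 9.89 ± 0.91 in HFD livers and 8.36 ± 0.42 in chow livers (SD, n = 18 each). Cyp3a44 averaged 8.16 ± 0.44 in HFD livers and 10.29 ± 0.35 in chow livers, and Cyp3a16 differed by -1.35 ± 0.09, and both belong to a family of near-identical genes whose signal can be shared. The lists and the members were chosen with earlier results of these data known, so their counts are descriptions.

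**Figure D5:**
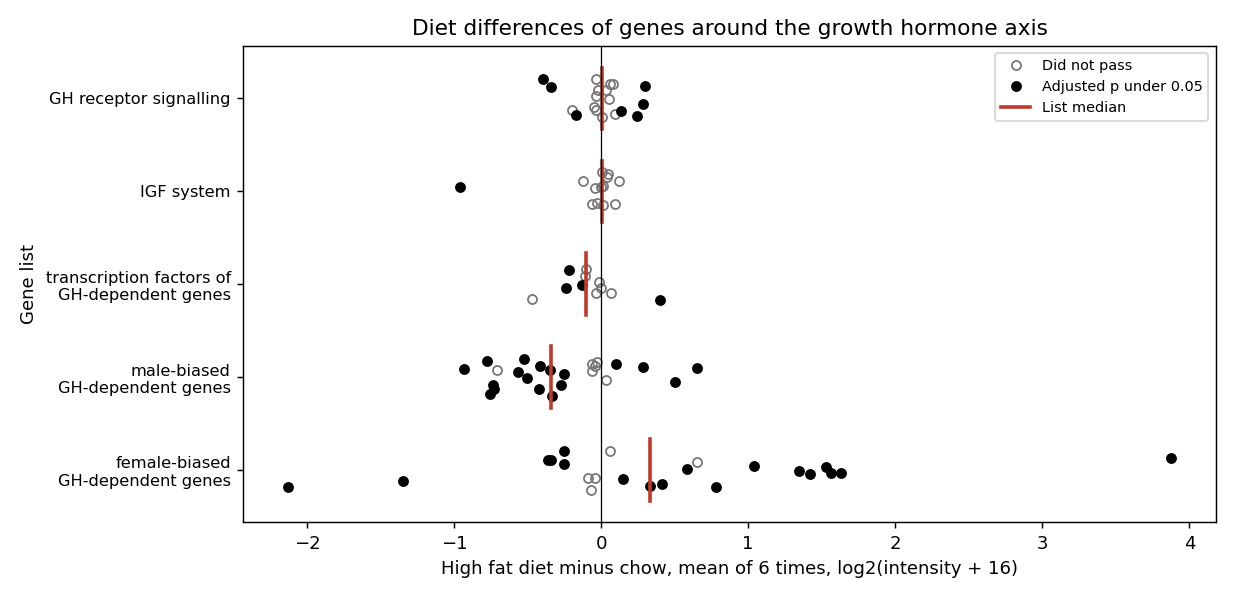
Diet difference of each tested gene (x axis, HFD minus chow, log2(intensity + 16)) in each of 5 pathway lists (rows), with filled points for genes at an adjusted p under 0.05, rings for the others, and a bar at the median of the list. The male-biased list has its median at -0.34 and the female-biased list at 0.33, and the signalling and IGF lists lie around 0.

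Markers of cell types were read in the same fit. Of 10 hepatocyte markers, 0 were higher and 2 lower on HFD, and their summed intensity ran from 82234 to 95452 in HFD samples and from 80863 to 95875 in chow samples. Of 10 markers of Kupffer cells and macrophages, 7 were higher and 0 lower, with a median of 0.34 and summed intensities of 3260 to 7607 in HFD samples and 2153 to 5779 in chow samples. Stellate cell markers were higher for 4 of 10, lymphocyte markers for 3 of 6, adipocyte markers for 2 of 4, and bile duct and exocrine pancreas markers for 1 of 3 and 1 of 5. Endothelial markers were lower for 1 of 10, and neutrophil and red cell markers gave 0 calls of 2 each. These counts stand against 11.2% higher and 9.80% lower of all tested genes, so that 2 of 10 hepatocyte markers is near the 21.0% called in all. Some depended on the settings: over 2 other scalings and 2 other filters on dim genes, 1 to 4 stellate, 2 to 3 lymphocyte, 0 to 1 adipocyte and 0 to 1 bile duct markers were higher, and the count for Kupffer cells and macrophages was 7 in each. The part of other cell types in the Socs2 and Igfals differences was not tested.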

How the data were processed

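Liver RNA of 36 samples, in 12 groups of 3 given by diet and harvest time, was measured on 1 array each. The deposited table holds linear intensities of 35556 probe sets, which the authors made with Affymetrix Expression Console 1.1.1 and PLIER 2.0, per the submitters' processing notes. Their background correction and between-array scaling are not stated in the sources used here. Array medians lay between 75.7 and 95.6, no pair of arrays correlated below 0.952, and the number of arrays limits the precision.

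The deposited intensities were put on the log2 scale as log2(intensity + 16). The platform annotation paired 21789 probe sets with 1 gene, 1621 with several, and 12146 were not listed. The brightest probe set stood for each of 19938 genes, and the 13956 above the 30th percentile of mean level, a log2 value of 6.11, were tested with limma 3.58.1 in R 4.3.3, with 24 residual degrees of freedom, p-values adjusted by Benjamini-Hochberg over all of them. Fits were tested on simulated data. Average and single-time diet effects, diet by time, time of day, 24 h waves and the slope on Cish were fitted.

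The members and lists were chosen with earlier results of these data known. Besides the members, up to 4 called genes of each pathway list with the smallest p are named, for each member the 2 genes of most alike group means, and for the slope the 5 genes with the smallest p in each direction and, chosen after their values were seen, the called genes of a pathway list. Alternatives were other scalings, filters, offsets, probe set rules, a replicate block, array weights, another variance prior, each sample left out in turn and, chosen after seeing the data, the dimmer Socs2 probe set and Bcl6 as covariate.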

Additional observations from a re-analysis of the deposited data

How the results depend on the processing

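Over the alternatives tried, Socs2 and Igfals stayed called lower on HFD in the diet effect over the day, with 2 or 3 of 7 genes called in all. The adjusted p ran from 1.57e-05 to 0.00221 for Socs2 and from 0.000414 to 0.00302 for Igfals. With array weights, the split over all genes was 2263 higher and 1996 lower, 1 gene was called in diet by time (Igfals), 2 genes had a 24 h wave on chow and 5 differed over the day on HFD. At single times the weights gave 6 calls, Socs2 at ZT4, ZT8, ZT12 and ZT20, Cish at ZT8 and Igfals at ZT12, and Igfals at ZT0 was not among them. The share of all genes called at single times with the weights is not given here. In the other tests the weights raised that share, to 30.5% in the diet effect over the day and 13.3% in diet by time. It rose to 32.0% in the wave on chow and 44.1% over the day on HFD. Calls at single times were 0 with quantile normalization, with no filter on dim probe sets and with an offset of 1. The shares of all genes called at single times under these settings are not given here. Fitting HFD samples alone called 2 waves on HFD, and the share of all genes called in that fit is not given here. The trended prior left 1 gene that differed over the day on chow, with Socs2 at an adjusted p of 0.0552. The slope on Cish was called for 0 of the axis genes in HFD samples alone, with Socs2 in its place, and without the 2 farthest samples, where 0, 10 and 27 of all 13955 genes were called. Leaving out each sample in turn gave 2 to 3 calls for the diet effect, 0 to 2 at single times, 0 for diet by time, 1 to 3 over the day on chow, 2 to 3 over the day on HFD, 1 to 2 waves on chow, 1 to 3 waves on HFD, 0 wave differences, 1 slope and 0 slope differences. The shares of all genes called in the fits with 1 sample left out are not given here. Among these fits, Ghr passed in the diet effect without HFD ZT16 replicate 1, chow ZT4 replicate 3 or chow ZT8 replicate 2 (adjusted p 0.0392 to 0.0486). At single times, Socs2 passed at ZT4 without chow ZT4 replicate 2 and at ZT12 without chow ZT12 replicate 1, Bcl6 at ZT12 without HFD ZT16 replicate 1, and Igfals at ZT12 without HFD ZT0 replicate 1. Over the day on chow, Cish passed without chow ZT0 replicate 2, ZT16 replicate 3 or ZT20 replicate 1, and Bcl6 without chow ZT0 replicate 2, and on HFD Cish passed without chow ZT0 replicate 2. With the replicate number as a block, the Socs2 difference was -0.88 with an adjusted p of 0.00106, Igfals was at 0.000902, and the count of calls was the same in every test. Same-numbered samples did not deviate together (median r -3.08e-06 over 198 pairs, from -0.587 to 0.429), so the numbers were read as names. The cause of these moves was not tested.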

Other observations

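Beyond the axis, 40 of 13955 genes had a slope on Cish between livers of the same diet and time that passed the test. The 5 genes with the smallest p and a positive slope were Arid5b, a DNA-binding chromatin regulator (0.38 ± 0.03 per log2 unit of Cish, adjusted p 2.06e-08 in limma), Foxa2, Gbp11, Phlda1 and Zfp809. The 5 with a negative slope were Tbx3, a T-box transcription factor (-0.26, adjusted p 6.29e-05), Fam214a, Prox1, a homeobox factor of hepatocytes, Klhl25 and Rnf43, a ubiquitin ligase that dampens Wnt receptors. With Bcl6 in place of Cish as the covariate, the slope of Cish was -0.87 ± 0.14 with an adjusted p of 0.00535, and 21 of 13955 genes were called.

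By the shape of the profile over the 12 group means, and with no test, the genes most like Cish were Onecut1 (Pearson r 0.964) and Arid5b (0.952). Those most like Stat5b were Mbl1 (0.944) and Cgn (0.939), those most like Socs2 were B3galt1 (0.918) and Snord55 (0.895), and those most like Bcl6 were Zmym4 (0.878) and Zfp467 (0.872). For Igf1 they were Tbxa2r (0.919) and Fam167b (0.877), for Igfals Pkdcc (0.977) and F7 (0.951), and for Ghr Ifih1 (0.963) and Tmem69 (0.950). These r values are over 12 means of the same arrays. They were picked as the highest among the 13956 tested genes with the axis genes left out.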
